A study of Melospiza melodia with 33 samples.

Results

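The cytosolic ribosomal protein genes of song sparrow blood were taken as the gene rows whose symbol is RPL or RPS followed by a number, with RPLP0, RPLP1, RPLP2, RPSA and RACK1 added. This rule uses symbols and no measured value. It found 74 of the 21141 gene rows: 44 genes of the large ribosomal subunit, 29 of the small subunit, and RACK1, a scaffold protein that sits on the small subunit. Of 79 textbook symbols for vertebrate cytosolic ribosomal proteins, 68 were among them. RPL10, RPL13A, RPL18, RPL26, RPL28, RPL41, RPS4X, RPS9, RPS18 and FAU were matched to no row by symbol and were not analysed here. The other 6 genes found were RACK1 and the copies RPL22L1, RPL26L1, RPL3L, RPL7L1 and RPS27L.

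Ribosomal proteins assemble with ribosomal RNA into the large and small subunits that carry out translation, and most are needed in equal amounts in each ribosome. Their mRNAs begin with a run of pyrimidines, the TOP motif, through which the mTOR pathway and the RNA-binding protein LARP1 control their translation and stability together. Birds have nucleated red cells, and young red cells make large amounts of haemoglobin. In humans, inherited loss of a copy of RPS19 or of several other ribosomal protein genes causes Diamond-Blackfan anaemia, a failure of red cell production.

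The data were 33 RNA sequencing libraries of whole blood from 25 free-living adult male song sparrows, all carrying 1 batch label. Territorial intrusions were simulated with songs, and the groups were 12 libraries after foreign song (recordings from Millbrook, New York), 11 after local song (recordings from Linesville, Pennsylvania, where the birds live) and 10 from baseline birds with no trial. Of the 23 trial libraries, 8 followed a second trial and 15 a first one. Both songs were heard by 8 birds: 8422, 8426, 8427 and 8430 heard local song first, and 8428, 8429, 8436 and 8439 heard foreign song first. The songs came from 6 recordings. Among paired birds, recording 3 always came before 4 and recording 5 before 6, so in the birds given these song, trial and recording cannot be told apart.

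Total counts ran from 64.7 to 103.7 M per library. Erythroid markers dominated the cell type markers, with a summed level of 8889 to 22753 counts scaled to a common library size (CPM) per library, against 608 to 1430 CPM for thrombocyte, 153 to 739 CPM for monocyte and 50.7 to 252 CPM for T cell markers. In bulk blood, fewer cells of a type and less RNA per cell cannot be told apart. The local song library labelled 8439 stood apart from the rest. Its TMM factor, which rescales a library for its composition, was 2.06, where the other libraries had 0.699 to 1.41. On the TMM-scaled CPM it also had the lowest erythroid sum, the highest thrombocyte sum and the lowest summed level of TOP mRNAs outside the ribosome (4174 CPM). These sums are already divided by its factor of 2.06, so their size and rank depend on the scaling and are not separate from it. Sums without the factor are not given here. The libraries labelled 8439 also resembled each other less than the pairs of the other birds did, as given below, so the main values are given with and without them. Whether both come from 1 bird was not tested, and if they do not, the values of 8439 counted below among within-bird differences are not within a bird.

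A count was present in all 33 libraries for 72 of the 74 genes. RPL3L, a muscle form of RPL3 in mammals, had 0 to 17 counts and a count in 14 libraries, and it alone failed the low-count filter. RPS19, a small subunit protein, had only 0 to 100 counts and a count in 32 libraries, with a mean of 0.261 CPM. The counter and its handling of shared reads are not stated, so why RPS19 has so few counts cannot be told. The 5 genes of highest mean CPM were RPSA (968), a small subunit protein also known as the laminin receptor precursor, RACK1 (946), RPL23A (885), RPS6 (866), which S6 kinase phosphorylates, and RPS24 (858). The 5 of lowest mean CPM were RPL3L (0.0185), RPS19 (0.261), RPS27L (1.29), RPL7L1 (8.33) and RPS2 (19.0). CPM is not corrected for transcript length, so these values do not rank the genes by number of transcripts.

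The ribosomal protein genes took 1.38% to 3.82% of all counts in a library (2.25% ± 0.53, SD, n = 33). Their level in a library was summarised as the mean log2 CPM of the 71 genes with a mean of at least 5 CPM, which leaves out RPL3L, RPS19 and RPS27L. It averaged 7.72 ± 0.47 in foreign song (n = 12), 7.69 ± 0.62 in local song (n = 11) and 7.66 ± 0.36 in baseline libraries (SD, n = 10). Without the libraries labelled 8439 the foreign song mean was 7.68 ± 0.46 and the local song mean 7.85 ± 0.33. The ranges overlapped widely: 6.94 to 8.68 after foreign song, 6.09 to 8.68 after local song and 7.14 to 8.30 at baseline. Second trial libraries averaged 7.40 ± 0.64 (n = 8), against 7.87 ± 0.40 in first trial libraries (n = 15), and 7.59 ± 0.39 against 7.85 ± 0.40 without 8439.

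**Figure D1:**
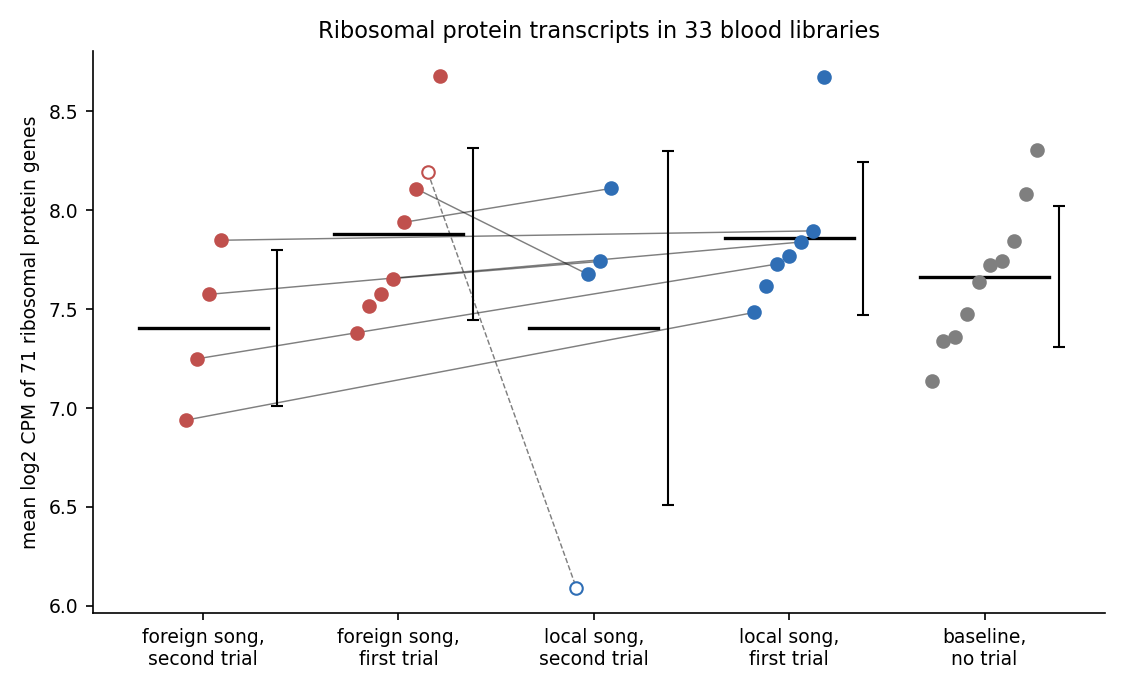
Mean log2 CPM of 71 ribosomal protein genes in each of 33 libraries (points), by song and trial, with the group mean (bar) and SD (whisker); lines join the 2 libraries of a bird, and open circles with a dashed line mark 8439. The lowest library, at 6.09, is the second trial of 8439, and the 2 highest, near 8.68, are first trials of birds 8433 and 8437. Without TMM factors the lowest is the foreign song library of bird 8426.

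The 2 highest libraries were the foreign song library of bird 8433 and the local song library of bird 8437, both first trials, at 8.68 each. RACK1 stood at 2955 CPM in the first and 3029 CPM in the second, where the median of all libraries was 873 CPM. Stalk protein RPLP1 stood at 1635 and 2247 CPM in the same libraries, against a median of 643 CPM. Their share of all counts was 3.82% and 3.23%, and their TMM factors, 0.779 and 0.699, were the lowest 2 of the series.

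The 8 birds with both trials allowed the second to be set against the first within a bird, in a fit with bird and song as terms. Of 73 ribosomal protein genes tested, 71 were lower on the log2 fold change in second trials, with a median of −0.42. None passed the threshold: 0 of 73 were called with edgeR's quasi-likelihood test at an adjusted p of 0.05, where 0% of the 11629 rows were called. The median of all rows was 0.04, and 45.1% of rows were below 0. At an unadjusted p under 0.05 there were 3 ribosomal protein genes and 666 rows in all, and the smallest adjusted p of a ribosomal protein gene was 0.633. DESeq2 and limma-voom also called 0 of the 73 genes, with 23 and 34 of them at an unadjusted p under 0.05. Over all 11629 rows these tools had 1105 and 1078 at that p, more than the 666 of edgeR. Large subunit genes had a median of −0.41 (42 of 43 below 0) and small subunit genes one of −0.42 (28 of 29 below 0).

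Bird by bird, the shift was unequal. The mean log2 CPM of the 71 genes was 7.25 in the second and 7.73 in the first trial of bird 8422, 6.94 and 7.48 in bird 8426, and 7.57 and 7.84 in bird 8427. It was 7.68 and 8.11 in bird 8429 and 7.85 and 7.90 in bird 8430. In birds 8428 and 8436 the second trial was the higher one, at 7.74 against 7.65 and at 8.11 against 7.94. The libraries labelled 8439 had 6.09 in the second and 8.19 in the first trial, a log2 difference of −2.10 where the other birds ran from −0.54 to 0.17. The size of this difference depends on the scaling, as the TMM factors of these libraries were 2.06 and 0.890. As a share of all counts, the ribosomal protein genes took 1.40% in the second and 2.73% in the first trial. The number of the 71 genes that were lower in the second trial was 71 in 8429 and 8439, 70 in 8422 and 8426, 69 in 8427, 41 in 8430, 31 in 8428 and 14 in 8436.

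The mean difference over birds was −0.45 ± 0.72 on the log2 scale (SD, n = 8, 6 of 8 below 0) and −0.22 ± 0.29 without 8439 (n = 7, 5 of 7 below 0). The fitted median of the 73 genes was −0.18 without 8439, with 70 below 0, and ran from −0.555 to −0.184 as each bird was left out. Without 8439, 7 of the 73 genes and 515 of 11632 rows had an unadjusted p under 0.05 in edgeR, and 0 of the 73 were called. This number of genes was unstable as each bird was left out. It ran from 0 without 8422 (302 of 11627 rows) to 35 without 8436 (1412 of 11675 rows). Without the birds given recordings 5 and 6 the fitted median was −0.23, with 25 of the 73 genes and 474 of 11638 rows at that p. With libraries scaled by total counts alone, without TMM factors, the mean difference was −0.21 ± 0.41 (7 of 8 birds below 0).

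**Figure D2:**
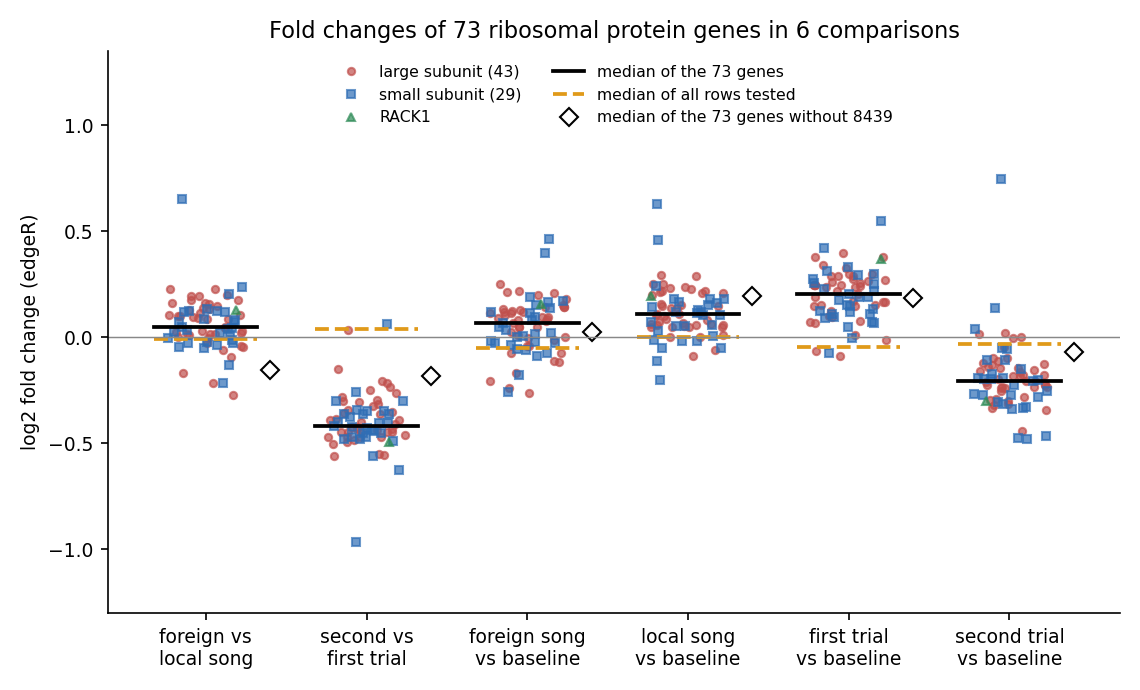
Log2 fold change (edgeR) of each of 73 ribosomal protein genes in 6 comparisons, with the median of the 73 genes (black bar), the median of all rows tested (dashed bar) and the median of the 73 genes without 8439 (diamond). In second against first trials the genes lie around −0.42, and around −0.18 without 8439; in foreign against local song the median is 0.05, and −0.15 without 8439.

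The named genes of this comparison come from several parts of the ribosome. RACK1, which links the ribosome to signalling and to quality control of stalled translation, had 191, 717 and 1046 CPM (lowest, median and highest) in the 8 second trial libraries, against 479, 903 and 3029 CPM in the 15 first trial libraries. The ranges overlapped, with the lowest value in 8439 and the highest in 8437. Its fitted log2 fold change was −0.49 ± 0.22 (SE, adjusted p = 0.633), and it was lower in 7 of 8 birds. Its mean log2 difference without 8439 was −0.30 ± 0.23 (SD, n = 7). RPS23, a protein of the decoding centre, had 94.5, 272 and 394 CPM in second trial libraries, against 170, 308 and 628 CPM in first trial libraries, with a log2 fold change of −0.47 ± 0.21 (lower in 6 of 8 birds). RPL35, which lies near the exit of the peptide tunnel, ranged from 20.9 to 86.7 CPM in second trials, against 31.3 to 85.7 CPM in first trials, with a log2 fold change of −0.44 ± 0.20 (lower in 6 of 8 birds). These 3 genes and the next, RPS26 (−0.30 ± 0.14) and RPL8 (−0.56 ± 0.26), shared the adjusted p of 0.633. Without 8439 the fitted values were −0.27 ± 0.12 for RACK1, −0.26 ± 0.12 for RPS23, −0.26 ± 0.13 for RPL35, −0.23 ± 0.12 for RPS26 and −0.28 ± 0.11 for RPL8 (SE, adjusted p = 0.959 each). Only RPS27L (0.06 ± 0.25) and RPL7L1 (0.04 ± 0.15), both copies, were above 0, and both took the other sign under some settings.

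With TMM scaling, RPSA was lower in the second trial of 8 of 8 birds, and of 7 of 7 without 8439. Its mean log2 difference was −0.40 ± 0.63, and −0.18 ± 0.19 without 8439 (SD, n = 7). Its level was 598 CPM in the second and 846 CPM in the first trial of 8422, 691 and 908 in 8426, 441 and 460 in 8427, 1289 and 1328 in 8428, 992 and 1119 in 8429, 985 and 1022 in 8430, 958 and 992 in 8436, and 343 and 1282 in 8439. In most birds the step was small next to the spread between birds. Of the stalk proteins, which recruit elongation factors to the large subunit, RPLP0 was lower in the second trial of 7 of 8 birds, and RPLP1 and RPLP2 in 6 of 8. Their mean log2 differences were −0.51 ± 0.85, −0.25 ± 0.52 and −0.19 ± 0.46 (SD, n = 8), and without 8439 they were −0.22 ± 0.18, −0.18 ± 0.53 and −0.13 ± 0.46 (n = 7). These values overlap. RPLP0 had 137, 541 and 765 CPM in second trial libraries, against 388, 717 and 1437 CPM in first trial libraries. RPS27A, a small subunit protein made as a fusion with ubiquitin, was lower in 6 of 8. Of the copies, RPL26L1 was lower in 7 of 8 birds, with 110, 364 and 494 CPM in second trials, against 274, 444 and 1101 CPM in first trials, and RPL22L1 in 6 of 8. Without 8439 their mean log2 differences were −0.25 ± 0.30 and −0.13 ± 0.27 (SD, n = 7).

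Genes that act with ribosomal proteins were described from lists, none of whose genes passed the threshold in any of the comparisons. These lists, like the ribosomal protein genes, were chosen with earlier results of these data known. Of the 22 measured genes in a list of elongation factors and other TOP mRNAs, 21 were below 0 in second against first trials, with a median log2 fold change of −0.29. Among the smallest p values in it were those of PABPC4 (−0.38 ± 0.18), a poly(A)-binding protein, and EIF3K (−0.34 ± 0.17), an initiation factor subunit. Of 71 mitochondrial ribosomal protein genes, 52 were below 0 (median −0.19), led by MRPS12 at −0.55 ± 0.21. Of 43 ribosome biogenesis factors, 30 were below 0 (median −0.10), led by BYSL at −0.52 ± 0.20, which acts in small subunit assembly. RNA polymerase I and its factors, which make ribosomal RNA, had a median of −0.01 (7 of 13 below 0). The mTOR and TOP regulator list had a median of −0.08 (9 of 17 below 0), and LARP1 was at 0.42 ± 0.17. Without 8439 the list medians were −0.10 for TOP mRNAs (21 of 22 below 0), −0.09 for mitochondrial ribosomal proteins (50 of 71), −0.07 for biogenesis factors (32 of 43), −0.03 for RNA polymerase I and 0.02 for the mTOR and TOP regulators.

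Some lists of cell type markers also lay off 0 in the same comparison, while the erythroid median lay near that of all rows (0.04). Thrombocyte markers were above 0 for 13 of 15 genes (median 0.39), with a summed level of 823 to 1430 CPM in second trial and 608 to 1134 CPM in first trial libraries. Monocyte markers were above 0 for 11 of 14 genes (median 0.34), with 225 to 528 CPM and 236 to 585 CPM. Erythroid markers were above 0 for 9 of 17 genes (median 0.03), with 8889 to 21955 CPM and 12085 to 22753 CPM. B cell markers were below 0 for 8 of 13 genes (median −0.11), T cell markers for 9 of 14 (median −0.05), and heterophil granulocyte and proliferation markers above 0 for 7 of 8 (median 0.26) and 12 of 16 (median 0.23). Without 8439 the medians were 0.12 for thrombocyte (11 of 15 above 0), 0.12 for monocyte (8 of 14 above 0), −0.03 for erythroid (11 of 17 below 0), −0.21 for B cell, −0.05 for T cell, 0.03 for heterophil granulocyte and 0.10 for proliferation markers, and the highest thrombocyte sum of a second trial was 1246 CPM. None of the list genes with a row was at 0 in every library. Their part in the levels of the ribosomal protein genes was not tested.

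The same 8 birds heard both songs, and the same fit gave foreign against local song. The 73 ribosomal protein genes had a median log2 fold change of 0.05 after foreign song, with 54 above and 19 below 0, beside a median of −0.01 and 50.9% below 0 over all rows. edgeR called 0 of 73, where 0% of the 11629 rows were called, with 0 ribosomal protein genes and 486 rows at an unadjusted p under 0.05. DESeq2 and limma-voom called 0 of the 73. Without 8439 the median turned to −0.15, with 71 of 73 genes below 0, beside a median of 0.01 over all rows. In edgeR, 7 of the 73 genes then had an unadjusted p under 0.05, and 0 of the 73 were called. At that p there were 0 of the 73 genes when any other bird was left out. Without the birds given recordings 5 and 6 the median was −0.11, with 0 of the 73 genes at that p.

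The mean log2 CPM of the 71 genes, foreign minus local, differed by 0.12 ± 0.86 within birds (SD, n = 8), with 6 of 8 birds below 0, and by −0.17 ± 0.32 without 8439 (n = 7, 6 of 7 below 0). With total count scaling alone the mean over 8 birds was −0.08 ± 0.46. In first trials alone, where the songs were heard by different birds, the fitted median was −0.01 with 40 of 73 below 0.

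RPLP1 and RPLP2, the paired acidic proteins of the stalk, had the smallest p among the genes below 0. RPLP1 had 351, 555 and 1635 CPM (lowest, median, highest) after foreign song, against 385, 670 and 2247 CPM after local song, and RPLP2 had 144, 235 and 585 CPM, against 206, 275 and 522 CPM. The groups overlapped for both genes. Their fitted log2 fold changes within birds were −0.27 ± 0.17 and −0.22 ± 0.16 (SE, adjusted p = 0.775 each), and each was lower after foreign song in 6 of 8 birds. Without 8439 the fitted values were −0.37 ± 0.14 and −0.29 ± 0.14 (SE, adjusted p = 0.887 each). RPS28 (−0.21 ± 0.21), RPL29 (−0.17 ± 0.19) and RPL17 (−0.09 ± 0.16), which lines the peptide tunnel, followed. Above 0, RPS19 had 0.65 ± 0.67 on its few counts. RPL5 (0.20 ± 0.22), which binds the MDM2 protein together with a ribosomal RNA, RPL7A (0.23 ± 0.24), RPS7 (0.24 ± 0.27) and RPL4 (0.23 ± 0.26) were above 0 with 8439 and below 0 without it.

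Among the lists, TOP mRNAs had a median of 0.17 after foreign song (18 of 22 above 0) and mitochondrial ribosomal proteins one of −0.04 (41 of 71 below 0). Monocyte markers were below 0 for 14 of 14 genes (median −0.71), and their summed level was 225 to 575 CPM in foreign song and 233 to 585 CPM in local song libraries. T cell markers were below 0 for 13 of 14 genes (median −0.46), heterophil granulocyte markers for 7 of 8 (median −0.52), thrombocyte markers for 12 of 15 (median −0.18) and B cell markers for 9 of 13 (median −0.20). Erythroid markers were above 0 for 13 of 17 genes (median 0.14) and proliferation markers for 12 of 16 (median 0.12). Without 8439 the median was −0.50 for monocyte (13 of 14 below 0), −0.47 for T cell (14 of 14), −0.27 for heterophil granulocyte (6 of 8), 0.02 for thrombocyte (5 of 15) and 0.14 for erythroid markers (3 of 17). The TOP mRNA median was then −0.00 (11 of 22 below 0) and the mitochondrial one −0.13 (61 of 71 below 0). The part of the cell type markers in the result was not tested.

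Each song and each trial was also compared with the baseline birds. These 4 comparisons share the same 10 baseline libraries, and the song and trial groups share libraries with each other, so they are not independent. edgeR called 0 of 73 ribosomal protein genes in each. Of all rows, 0% were called for foreign song, 0.00847% for local song, 0.00834% for first trials and 0.0168% for second trials against baseline. DESeq2 and limma-voom called 0 of the 73 genes in each as well.

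First trials against baseline gave a median log2 fold change of 0.20 over the 73 genes, with 68 above 0, beside a median of −0.05 over all rows. At an unadjusted p under 0.05 there were 2 of the 73 genes and 720 rows. RPL13 had 0.38 ± 0.15 and RPS26, which contacts the mRNA at the exit of the small subunit, had 0.55 ± 0.23 (SE, adjusted p = 0.815 each). RPL22 (0.29 ± 0.15), RPL4 (0.29 ± 0.16) and RPL36 (0.38 ± 0.21) followed. Among the genes below 0 were RPL29 (−0.09 ± 0.21) and RPL7L1 (−0.07 ± 0.17). The median was 0.19 without 8439, with 7 of 73 genes below 0. RPL13 then had 0.39 ± 0.15 and RPS26 0.61 ± 0.22 (SE, adjusted p = 0.627 and 0.574).

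Second trials against baseline gave a median of −0.21, with 67 of 73 genes below 0, beside −0.03 over all rows, and 0 of the 73 genes and 992 rows had an unadjusted p under 0.05. RPS12 had −0.46 ± 0.23 and RPL10A −0.44 ± 0.24 (adjusted p = 0.614 and 0.633), followed by RPL38 (−0.32 ± 0.21), RPS14 (−0.47 ± 0.31) and RPS25 (−0.33 ± 0.22). RPS27L, a copy that is induced by p53 in human cells, was at 0.74 ± 0.59 and RPS26 at 0.14 ± 0.26. Without 8439 the median was −0.07, with 55 of 73 genes below 0. RPS12 then had −0.34 ± 0.21 and RPL10A −0.32 ± 0.21 (SE, adjusted p = 0.652 and 0.688).

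Each song group pooled first and second trials. With first trials only, the median against baseline was 0.215 for foreign song (6 of 73 below 0) and 0.211 for local song (4 of 73 below 0). With both trials pooled, foreign song against baseline had a median of 0.07 (50 of 73 above 0) and 0.02 without 8439, beside −0.05 over all rows. There 0 of the 73 genes and 842 rows had an unadjusted p under 0.05. Local song against baseline had 0.11 (63 of 73 above 0) and 0.20 without 8439, beside −0.00 over all rows, with 0 of the 73 genes and 702 rows at that p. Without 8439 there were 3 of the 73 genes and 798 of 11687 rows at that p for local song, and 0 of the 73 genes for foreign song. None of the 73 genes was called in either. With all birds, RPS26 and RPL13 had the smallest p among genes above 0 in both, at 0.40 ± 0.25 and 0.25 ± 0.16 after foreign song (adjusted p = 0.734 and 0.754) and at 0.46 ± 0.24 and 0.30 ± 0.18 after local song (adjusted p = 0.847 and 0.869). Without 8439 they were at 0.47 ± 0.24 and 0.25 ± 0.17 after foreign song (adjusted p = 0.601 and 0.685). After local song they were then at 0.56 ± 0.21 and 0.39 ± 0.14 (adjusted p = 0.615 and 0.584). Below 0 after foreign song, RPL29 (−0.26 ± 0.24), RPL38 (−0.21 ± 0.20) and RPLP1 (−0.24 ± 0.25) came first by p, and RPS14 (−0.11 ± 0.26) was among the genes below 0 after local song.

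T cell markers lay mostly below 0 beside these values. Against baseline, 11 of 14 were below 0 after foreign song (median −0.93, 8 at an unadjusted p under 0.05) and 9 of 14 after local song (median −0.41), with a summed level of 50.7 to 141 CPM in foreign song and 53.7 to 175 CPM in local song libraries. In first trials against baseline, 10 of 14 were below 0 (median −0.77), with a summed level of 60.3 to 141 CPM in first trial and 61.1 to 252 CPM in baseline libraries, and in second trials 9 of 14 were below 0 (median −0.34), with 50.7 to 175 CPM. Without 8439 the T cell medians were −0.92 after foreign song, −0.81 after local song, −0.76 in first trials and −0.998 in second trials. Heterophil granulocyte markers had medians of −0.50 (7 of 8 below 0) after foreign song, −0.21 (6 of 8) after local song, −0.40 (7 of 8) in first trials and −0.33 (7 of 8) in second trials. Monocyte markers had −0.29 (13 of 14 below 0), 0.24 (3 of 14), −0.09 (10 of 15) and 0.06 (6 of 14) in the same order, and thrombocyte markers −0.15, 0.03, −0.17 and 0.19. Without 8439 the heterophil granulocyte medians were −0.44, −0.39, −0.33 and −0.56. Monocyte medians were then −0.21, 0.11, −0.02 and −0.06, and thrombocyte medians −0.13, −0.16, −0.17 and −0.05. So the thrombocyte medians for local song and second trials, and the monocyte median for second trials, changed sign. Their part in the levels of the ribosomal protein genes was not tested. The TOP mRNA list had a median of 0.18 in first trials (19 of 22 above 0) and −0.06 in second trials (14 of 22 below 0) against baseline, and 0.15 and 0.03 without 8439.

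Ribosomal protein transcripts moved together across libraries. The correlation of each of the 71 genes with the mean of the others over 33 libraries had a median of 0.896, from 0.477 for RPL7L1 to 0.966 for RPL15, and the median was 0.857 without 8439. All of these values share the library's scaling. The SD of the mean log2 CPM over the 33 libraries was 0.48, and 0.39 without 8439. Large subunit genes lay above small subunit genes by 0.28 ± 0.08 in mean log2 CPM (SD, n = 33), and this difference between the subunits ran only from 0.16 to 0.50.

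The log2 ratio of a gene to the mean of the 71 does not depend on how libraries are scaled against each other. Its SD over the 33 libraries had a median of 0.26 and ran from 0.13 for RPL15 to 0.55 for RPS28, a small subunit protein at the mRNA exit. RPLP1 (0.52) and RPS2 (0.50), which lines the mRNA entry of the small subunit, followed. RPL15 held its ratio between −1.06 and −0.56 in all libraries. RPS28 ranged from −4.11 in the local song library of bird 8427 to −2.27 in a baseline bird, 8450. RPLP1 ranged from 0.90 in the foreign song library of bird 8429 to 3.21 in baseline bird 8450.

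These ratios followed the bird. Centred on each gene's own mean over the 33 libraries, the 71 ratios of a bird's second and first trial libraries correlated at 0.922 in 8427, 0.849 in 8422, 0.844 in 8429, 0.668 in 8436, 0.629 in 8426, 0.583 in 8428 and 0.568 in 8430. In all 14 libraries of these 7 birds, the bird's own other library was the most alike of the 32 others. The libraries labelled 8439 were the exception, with a correlation of −0.034. Their nearest libraries were local song bird 8432 for the second trial, at 0.744, and baseline bird 8450 for the first, at 0.502. The median over all pairs of libraries from different birds was −0.043. Centring each gene on its mean over the same 33 libraries itself holds such correlations near 0 on average. This median is therefore not an independent reference. These correlations are across genes, which are not independent replicates, and the 2 libraries of a bird were compared after different songs and trials.

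**Figure D3:**
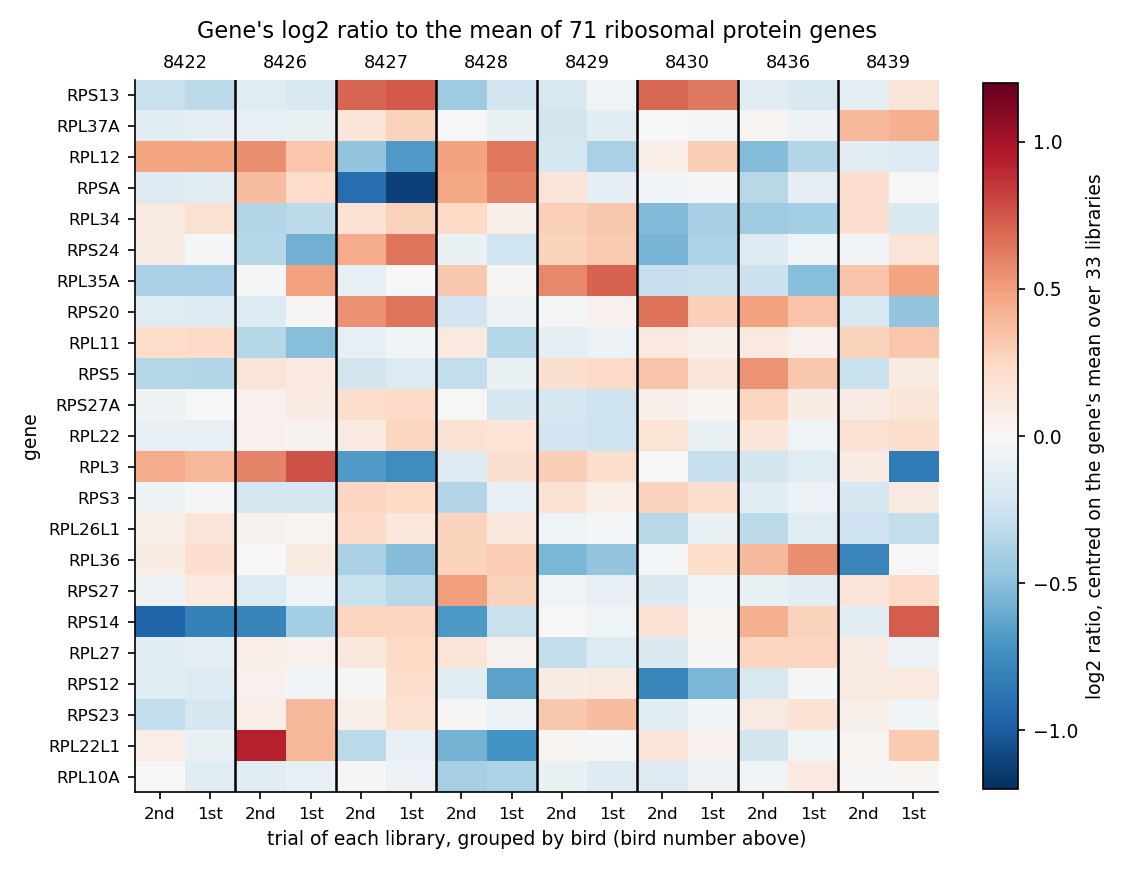
Log2 ratio of a gene to the mean of the 71 ribosomal protein genes, centred on the gene's mean over 33 libraries, in the 16 libraries of the 8 birds with both songs (second trial left of first). The 23 genes shown are among those with the smallest difference within birds relative to that between birds, over all 8 birds. The columns of a bird resemble each other in 7 birds (correlation over 71 genes 0.568 to 0.922), as for RPSA, low in both libraries of 8427; in 8439 the correlation is −0.034.

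For each gene, the absolute difference of the log2 ratio between the 2 libraries of a bird was set against that between libraries of different birds. Without 8439 these were foreign and local song libraries of different birds. With 8439 the pairs from different birds also included libraries after the same song. The within-bird difference was the smaller one for 68 of 71 genes, and for 67 of 71 without 8439. The quotient of the 2 had a median of 0.531 without 8439. RPS13, RPL34, RPSA and RPL3 were among the genes with the lowest quotients, a choice made after their values were seen.

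RPS13, a small subunit protein, was high in both libraries of 2 birds. Its centred log2 ratio was 0.69 in the second and 0.74 in the first trial of 8427, and 0.69 and 0.64 in 8430. In the other 5 of the 7 birds it lay between −0.43 and −0.05. On the scale of levels, RPS13 had 256 and 317 CPM in 8427 and 308 and 307 CPM in 8430, against 105 and 141 CPM in 8422. Among the 10 baseline birds the centred ratio ran from −0.31 to 0.75.

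RPSA gave the widest span of these 4 genes. Its centred log2 ratio was −0.92 in the second and −1.12 in the first trial of 8427 and 0.47 and 0.60 in 8428, so the birds differed by more than the whole range of the 10 baseline birds, from −0.40 to 0.54. RPL34 differed by 0.08 within and 0.40 between birds, and RPL3, a protein of the peptidyl transferase centre, by 0.15 and 0.56. At the other end, RPS16 (0.17 and 0.15), RPL31 (0.30 and 0.27) and RPL15 (0.11 and 0.10) differed as much within as between birds.

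**Figure D4:**
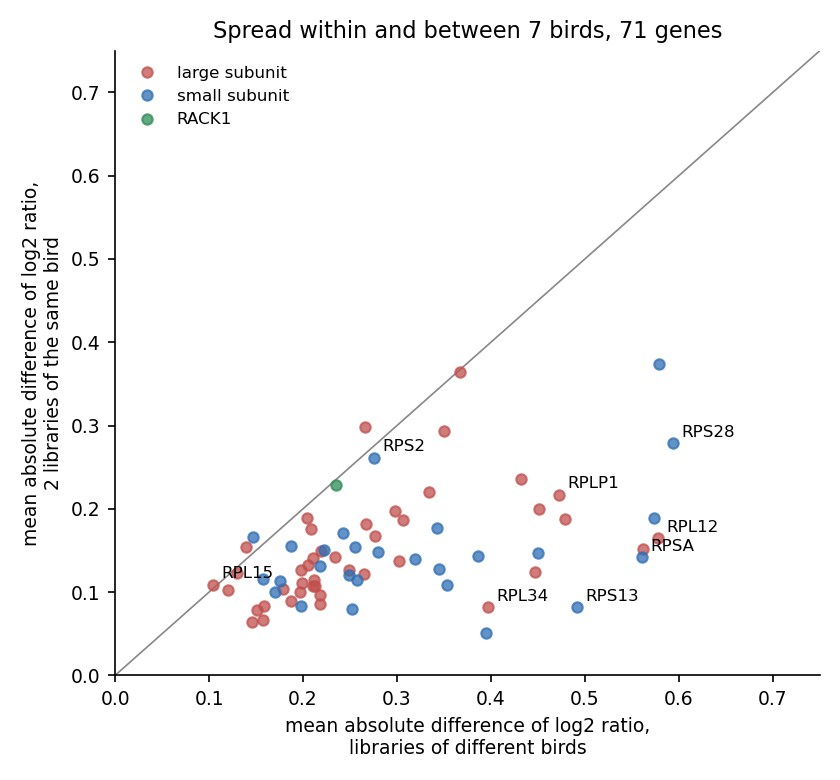
Mean absolute difference of the log2 ratio to the mean of the 71 genes, between 2 libraries of the same bird (vertical axis) and between foreign and local song libraries of different birds (horizontal axis), for 71 genes in 7 birds without 8439. Of the 71 points, 67 lie below the line of equality, with RPS13 (0.08 and 0.49) and RPL34 (0.08 and 0.40) far below it.

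Named genes with a special place in the ribosome fell between these ends. RPS27A (0.08 within and 0.20 between birds), RPLP0 (0.10 and 0.22) and RPLP1 (0.22 and 0.47) differed less within birds, while RACK1 (0.23 and 0.24) and RPS2 (0.26 and 0.28) differed about as much. RPLP1 differed most between trials in 8439 and 8428, with a centred log2 ratio of 1.31 in the second and −0.12 in the first trial of 8439, and 1.02 and 0.23 in 8428. In bird 8429 it was low in both, at −0.80 and −0.81.

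The copies were read against the gene they resemble, as the log2 ratio of counts plus 1. RPL22L1, which in mice can replace RPL22 in the ribosome, had more counts than RPL22 in every library. Its ratio was 1.03 ± 0.46 in foreign song (n = 12), 0.86 ± 0.39 in local song (n = 11) and 0.99 ± 0.33 in baseline libraries (SD, n = 10), and the ranges overlapped, from 0.08 to 1.84 over all 33. RPL7L1, a factor related to RPL7, had −5.13 ± 0.48, −4.95 ± 0.66 and −4.92 ± 0.41 in the same order. RPS27L had −7.95 ± 1.47, −8.13 ± 1.67 and −8.31 ± 1.32 against RPS27. RPL26L1 had a mean of 428 CPM, and no row of the symbol RPL26 stands beside it. It is not stated whether reads shared with a near-identical copy were counted, so these ratios are uncertain, and a ratio between 2 genes also depends on their transcript lengths.

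Outside the ribosomal protein genes, the rows most like them were sought by the Pearson correlation of log2 CPM with the mean of the 71 genes, which shares the library scaling. Over 33 libraries, the 10 most alike rows included NACA (0.932), which binds nascent peptides at the ribosome, NDUFA1 (0.906) and NDUFB8 (0.898), subunits of respiratory complex I, CHURC1, UBE2J2 (0.898), STUB1 (0.895), BUD31 (0.893), NKIRAS2 (0.892) and HIGD2A (0.890). Without 8439, NACA (0.887) and NDUFA1 (0.858) again stood near the top, and LOC134433686, PSMB7, SOD1 and PITHD1 entered the first 10. Among lists, the median correlation was 0.628 for TOP mRNAs and 0.449 for mitochondrial ribosomal proteins, against 0.0337 over 8474 other rows, and 0.464 and 0.427 without 8439. It was 0.230 for ribosome biogenesis factors, 0.0585 for RNA polymerase I and its factors, and 0.0706 for the mTOR and TOP regulators; without 8439 these were 0.226, 0.0411 and −0.062.

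**Figure D5:**
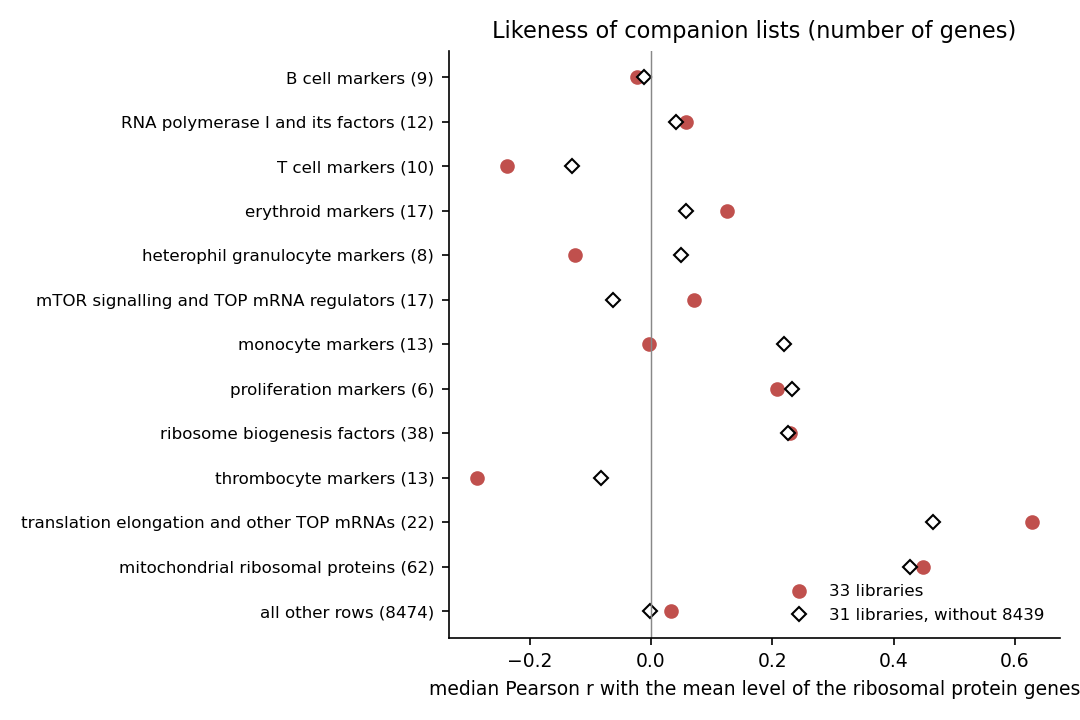
Median Pearson correlation of log2 CPM with the mean log2 CPM of 71 ribosomal protein genes, for the genes of each list whose mean log2 CPM is 0 or higher (numbers in brackets), over 33 libraries (filled) and 31 libraries without 8439 (open). Over 33 libraries TOP mRNAs, at 0.628, and mitochondrial ribosomal proteins, at 0.449, lie highest, and thrombocyte markers, at −0.287, lie lowest. Without 8439 thrombocyte markers lie at −0.083, and T cell markers, at −0.129, lie lowest.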

How the data were processed

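For each of 33 libraries the authors deposited whole-number counts by gene row, with no normalization visible in the values. Per the labels' protocols, blood RNA was poly(A)-enriched and prepared with a KAPA HyperPrep kit without haemoglobin depletion. The submitters' processing notes name fastp and STAR. Not given in the sources used here: program versions, counter, strandedness and genome build. Overlapping or near-identical genes are therefore uncertain. No 2 of the 528 pairs of libraries held the same counts.

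The tests were run with edgeR 4.0.16 (R 4.3.3), using filterByExpr (minimum count 10, total 15), TMM normalization, a robust quasi-likelihood fit, and Benjamini-Hochberg adjustment over all rows tested at 0.05. Alternatives, whose effect is given at the end, changed the scaling, filter, tool, block and libraries, with DESeq2 1.42.0 and limma 3.58.1. The SE of a fold change is its size divided by the square root of the F statistic. The paired comparisons use 16 libraries with bird as a block, since the labels give the bird of each library. CPM and log2 CPM (prior count 1) use 1 TMM scaling over all 33 libraries. The fits were also run on simulated data. No outcome is given here, so that run says nothing about effects of the size reported. Total counts were 64.7 to 103.7 M per library.

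The members and lists were chosen with earlier results of these data known. Named genes were RPLP0, RPLP1, RPLP2, RACK1, RPSA, RPS27A, the copies, the 5 highest and 5 lowest by CPM, the 5 of smallest p per direction and comparison, the 3 of most variable ratio, the 10 most alike rows and the 3 of smallest p per list where it is described; a few genes these rules name are not reported here. All 74 symbols are in RefSeq's gene table (assembly bMelMel2.pri), used for names only.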

Additional observations from a re-analysis of the deposited data

Results flagged for a closer look

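Of 80 groups of 4 to 10 samples tested for a single sample far from the others, 13 held one. Chance gives about 1 in 20 for a single test. These tests share libraries and use genes that move together, so they are not independent and the count cannot be set against that rate. Apart from the one for RPL3L, the hits repeat the libraries of 8439, 8433 and 8437. The second trial library labelled 8439, after local song, lay far below the other second trial libraries for RPLP0 (log2 CPM 7.09), RACK1 (7.58) and RPL22L1 (5.96). The pair of libraries labelled 8439 also stood apart in its difference in mean log2 CPM of the 71 genes, which was −2.10 for second minus first trial and 2.10 for foreign minus local song, both the same difference with opposite order. These values use TMM factors of 2.06 for the second and 0.890 for the first trial library. As a share of all counts the ribosomal protein genes took 1.40% and 2.73%. Among first trials after foreign song, bird 8433 lay far above the rest for RPLP2 (log2 CPM 9.19), RACK1 (11.5) and RPL26L1 (10.1). Among first trials after local song, bird 8437 lay far above the rest for the mean of the 71 genes (8.68), RPLP1 (11.1), RACK1 (11.6) and RPL26L1 (9.98). RPL3L stood apart in the local song library of bird 8434, at a log2 CPM of −3.50, on few counts.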

How the results depend on the processing

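None of the 73 ribosomal protein genes passed the threshold in any of the 69 alternative fits. For second against first trials the median log2 fold change was −0.42, and −0.354 with no replicate block; for foreign against local song it was 0.05, and 0.017 with no replicate block. The block changed no call of a ribosomal protein gene. Leaving out a bird gave −0.555 to −0.184 for the trials and −0.152 to 0.211 for the songs; without 8439 these were −0.184 and −0.152, so the median for the songs changed sign.

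Over all rows, DESeq2 called 4 genes for foreign against local song and 6 for second against first trials, where edgeR called 0 in each. Against baseline DESeq2 called 1 for foreign song (edgeR 0), 18 for local song (edgeR 1), 5 for first trials (edgeR 1) and 38 for second trials (edgeR 2). For local song against baseline the count was 0 with RLE normalization, TMM without the 10 most abundant genes, no low-count filter, without 8439, without the libraries with 2 lanes of raw files, and with first trials only. For first trials against baseline it was 0 with no filter, with limma-voom and without 8439. For second trials against baseline it was 4 without 8439.

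Of the values of named genes, 603 kept their direction and side of the threshold and 36 took the other sign; the cause was not tested. For foreign against local song, leaving out birds given recordings 5 and 6 gave RPS19 −0.000305, RPL7A −0.0848, RPS7 −0.0821 and RPL4 −0.112, and first trials alone gave RPS19 −0.463, RPL7A −0.00234, RPL4 −0.0729 and RPL29 0.0122. With a bird left out, RPL17 ran from −0.202 to 0.0257, RPL5 from −0.0315 to 0.324, RPL7A from −0.0455 to 0.382, RPS7 from −0.0605 to 0.412 and RPL4 from −0.0549 to 0.384. For second against first trials, RPS27L was −0.0715 with no replicate block and −0.14 without birds given recordings 3 and 4, and ran from −0.08 to 0.218 with a bird left out. RPL7L1 was −0.06 without birds given recordings 5 and 6 and ran from −0.0322 to 0.146. Against baseline with first trials only, RPS28 was 0.0173 for foreign song and RPL10A 0.0407 for local song, and without 8439 RPSA was 0.0277 and RPL29 0.00952 for local song. For first trials against baseline, RPS21 was 0.0187 with RLE and with DESeq2, 0.0174 without the 10 most abundant genes, 0.0307 with limma-voom and 0.0499 without the 2-lane libraries. RPL38 was 0.00226 without the 10 most abundant genes and 0.0402 without the 2-lane libraries, and RPL29 0.00727 with limma-voom. For second trials against baseline, limma-voom gave RPS20 −0.101, RPL13 −0.0595 and RPL35 −0.0351. The SD of the mean level over libraries was 0.48, 0.388 without 8439 and 0.313 with no scaling factors. The list values without 8439 were chosen after seeing the data. RPL3L (0 to 17 counts), RPS19 (0 to 100) and RPS27L (15 to 478) have few counts, which limits their precision.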
